A study of Xenopus laevis with 20 samples.

Results

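A set of 5154 of the 15146 explant p300 peaks of the series stood apart from both signalling effectors that had been profiled. They were chosen by the positions of the deposited peaks alone. A peak was kept if it shared no base with a β-catenin, Smad1 or whole-embryo p300 peak, and if no β-catenin or Smad1 peak lay within 10 kb of it, from edge to edge. These peaks are called isolated p300-only peaks here, and β-catenin and Smad1 are called the effectors. They made up 34.0% of the explant p300 list (exact 95% interval 33.3 to 34.8), and the 4 lists of the series together held 43980 peaks.

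p300 is a histone acetyltransferase that is brought to DNA by many transcription factors, and its sites are widely used to mark candidate enhancers. β-catenin carries the canonical Wnt signal into the nucleus, where it acts on DNA together with TCF/LEF factors. Smad1 is the DNA-binding effector of BMP signalling. In the vertebrate embryo, Wnt and BMP signals help to pattern the gut tube along its length.

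The material was wild-type Xenopus laevis at Nieuwkoop-Faber stage 20. Explant p300 and β-catenin had each been profiled in 4 ChIP libraries, from foregut and from hindgut explants, which had received either the vehicle DMSO or BIO at 60 μM between stages 12 and 20. BIO inhibits GSK3 and so activates the Wnt pathway. Smad1 and p300 had been profiled in whole embryos for which the labels give no treatment, with 1 ChIP library each. Each ChIP library had an input library, which makes 20 libraries in 20 groups, and the labels do not say how many embryos or explants went into one. By their peak names the explant lists pool both tissues and both treatments. A p300 peak could therefore not be given a value in foregut or hindgut, or with or without BIO. The Smad1 list was made from another tissue than the explant lists, so that a peak absent from it is not shown to lack Smad1 in explants.

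Each peak carries the authors' values, namely a score, which is 10 times the −log10 p-value, and a fold enrichment of ChIP over local background. Each list is 1 call set with no replicate list, and read depth is unknown. No test between groups of peaks was therefore made. Shares are given with exact (Clopper-Pearson) 95% intervals and differences of shares with Newcombe 95% intervals. Both cover counting error only, and neighbouring peaks are not independent. No gene or sequence is given for a position, since no source used here names the genome build behind the coordinates.

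The rule removed peaks in steps. Of the 15146 explant p300 peaks, 9251 did not overlap β-catenin, 8259 overlapped neither effector and 7597 overlapped none of the 3 other lists. Of these 7597 peaks, 2443 had an effector peak within 10 kb and are called near p300-only peaks below, and 5154 did not. The remaining explant peaks were 662 that overlapped whole-embryo p300 without an effector and 6887 that overlapped an effector. Peaks at nearly equal distances from an effector fall on either side of the 10 kb limit. The isolated peak closest to it lay on chromosome 7L from 43449605 to 43449930 (6.69-fold), 10.014 kb from β-catenin. The next lay on chromosome 6L from 22856469 to 22856821 (8.29-fold), at 10.019 kb. Just inside the limit were near peaks on chromosome 4L from 11829499 to 11829943 (12.1-fold) and from 4873090 to 4873309 (5.98-fold), at 9.993 and 9.992 kb.

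Isolated p300-only peaks tended to be somewhat weaker than the list as a whole, with values that overlapped widely. Their median fold was 7.74 (quartiles 6.79 and 8.95) and their median score 296, against a fold of 8.04 and a score of 328 over all explant p300 peaks. Peaks that overlapped an effector had a median fold of 8.59 and a median score of 375. A fold above the list's median was found in 2177 isolated peaks (42.2%, interval 40.9 to 43.6), where the whole list gives 50%. The share was 59.5% among effector-overlapping peaks, 17.2 points higher (interval 15.5 to 19.02). Among effector-free peaks that overlapped whole-embryo p300, which the rule leaves out, it was 53.8%, 11.5 points higher (interval 7.50 to 15.5). The 2 effector-free classes thus lay on opposite sides of isolated peaks. Against near p300-only peaks, which also lack an effector, the order turned. Of these 38.4% were above the median fold, so that isolated peaks were 3.84 points higher (interval 1.48 to 6.18). When peaks with whole-embryo p300 within 10 kb were left out of both classes, the difference was 1.94 points, with an interval of −0.769 to 4.62 that held 0. The scores did not follow this order, since the median score of near peaks was 301.

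The share of isolated peaks varied widely with the p300 score. They formed 140 of the 1515 peaks in the highest-scoring decile of the list (9.24%, interval 7.83 to 10.8) and 747 of the 1514 peaks in the lowest-scoring decile (49.3%, interval 46.8 to 51.9). Near p300-only peaks ran the same way, from 5.48% to 21.1%, and effector-overlapping peaks the other way, from 77.4% to 27.1%. Effector-free peaks that overlapped whole-embryo p300 ran like the effector-overlapping ones, from 7.85% to 2.44%. Among the 100 highest scores of the list, 7 belonged to isolated peaks.

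**Figure D1:**
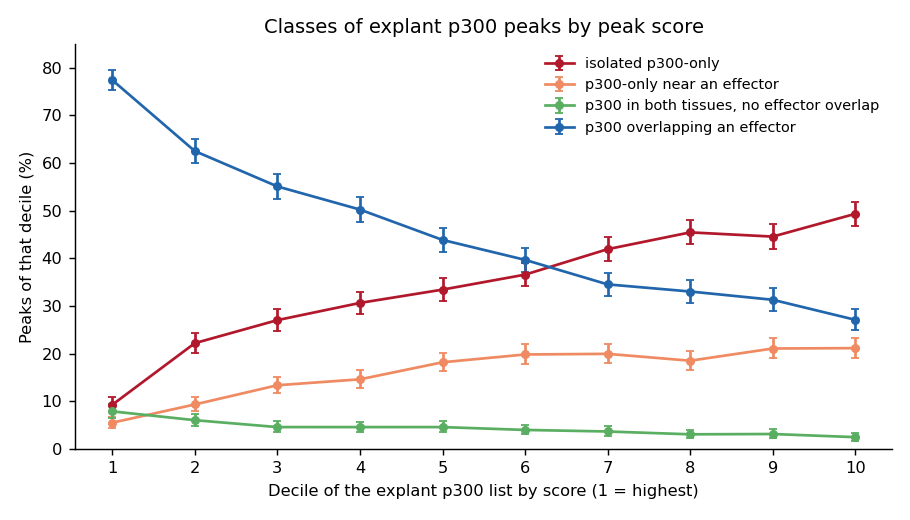
Share of each class of explant p300 peaks (y axis, percent, with exact 95% intervals) in each decile of the list by score (x axis, 1 is the highest). Isolated p300-only peaks go from 9.24% in the first decile to 49.3% in the last, and effector-overlapping peaks from 77.4% to 27.1%.

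A few isolated peaks were nevertheless among the strongest of all p300 peaks. The highest-scoring one lay on chromosome 1S from 31405542 to 31406018, with a score of 1411, which ranked 14 in the list, and a 29.5-fold enrichment, the highest fold of the explant p300 list. Its nearest Smad1 and β-catenin peaks were 271.7 and 325.3 kb away, and the nearest other explant p300 peak was 262.3 kb away. The next, also on chromosome 1S, from 145117938 to 145118363, had 20.0-fold enrichment and ranked 21, with β-catenin 264.4 kb and Smad1 795.5 kb away. These 2 sites thus stood alone over long distances.

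The other leading peaks were similar in their distance from the effectors. The peak on chromosome 9_10S from 30795766 to 30796185 had 19.8-fold enrichment and lay 302.8 kb from the nearest β-catenin peak. On chromosome 3S, the peak from 46342256 to 46342789 had 16.6-fold enrichment, with Smad1 at 404.6 kb as its nearest effector. The peak on chromosome 6L from 71666409 to 71667054 (14.9-fold) differed in having another explant p300 peak 4.23 kb away, although β-catenin was 284.0 kb away. The lowest fold, picked out after the values were seen, was 3.09 on chromosome 6L from 1116100 to 1116343. That peak had a score of 317, above the members' median, and a whole-embryo p300 peak only 289 bp away.

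Isolated peaks were also narrow, with a median width of 367 bp (quartiles 296 and 464), against 382 bp for near p300-only peaks and 453 bp for effector-overlapping peaks. A width above the list's median of 411 bp was found in 36.8% of them (interval 35.4 to 38.1) and in 49.8% of the whole list. The share was 41.0% for near p300-only peaks and 56.6% for effector-free peaks that overlapped whole-embryo p300. A wide peak reaches others more easily, so the rule itself favours narrow ones. At matched score the order was the same. In 10 of 10 deciles of the list by score, the median isolated peak was narrower than the median near peak and the median effector-overlapping peak. The gap to near peaks ran from 357 against 361.5 bp in decile 7 to 436.5 against 530 bp in decile 1. Matching on score does not remove the effect of the rule on width. In the highest-scoring decile the isolated peaks had a median width of 436.5 bp and the effector-overlapping peaks one of 538 bp. Fold ran against width, since the median fold of isolated peaks was above that of near peaks in 9 of 10 deciles and above that of effector-overlapping peaks in 8 of 10. In the highest-scoring decile it was below both, at 12.5 against 12.7 and 13.2.

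The rule itself sets the distance from isolated peaks to the effectors at over 10 kb, so the distances are a description. Over the 8104 explant p300 peaks with no effector overlap but an effector peak on their sequence, the median was 24.5 kb. Over the 5026 isolated peaks with an effector peak on the same sequence, the nearest effector was a median of 56.0 kb away (quartiles 24.3 and 123.8 kb). It was more than 100 kb away for 1556 of them (31.0%, interval 29.7 to 32.3) and more than 1 Mb away for 14. The nearest effector peak was β-catenin in 82.9% (interval 81.8 to 83.9). The β-catenin list is also the longer of the pair, with 16303 peaks against 7976 for Smad1. The most distant on a named chromosome was a peak of 6.86-fold enrichment on chromosome 4S from 47234311 to 47234727, 2423 kb from β-catenin and 2079 kb from any other explant p300 peak. A second peak of chromosome 4S, from 55790237 to 55790605 (9.87-fold), was 1586 kb from Smad1, and a peak on chromosome 6S from 124963406 to 124963774 (8.13-fold) was 1255 kb from β-catenin.

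p300 strength varied little with distance up to 200 kb. Median folds were 7.67 at 10 to 20 kb (n = 979), 7.79 at 20 to 50 kb, 7.63 at 50 to 100 kb and 7.72 at 100 to 200 kb. Near p300-only peaks closest to an effector, at up to 2 kb, had a median of 7.50 (n = 782). The median was 7.62 for those at 2 to 5 kb and 7.66 for those at 5 to 10 kb. Of the near peaks at 5 to 10 kb, 41.3% (interval 37.9 to 44.7) had a fold above the list's median. Folds thus hardly differed between the bins on either side of the 10 kb limit. The quartile ranges of all these bins overlapped widely. Beyond 200 kb the folds were somewhat higher. The median was 7.90 at 200 to 500 kb, where 45.9% (interval 41.8 to 50.1) had a fold above the list's median. In the last bin, over 500 kb, the median was 8.32, and 57.0% of its 114 peaks (interval 47.4 to 66.3) had a fold above the list's median, against 40.2% at 10 to 20 kb (interval 37.2 to 43.4). The median score was 307 in the last bin and between 290 and 297 in the other bins of isolated peaks. Taken by score, the highest-scoring quintile of the isolated peaks lay over 100 kb from an effector in 31.2% (interval 28.4 to 34.2) and the lowest-scoring quintile in 31.6% (interval 28.8 to 34.6), and the 100 highest-scoring ones in 36% (interval 26.6 to 46.2).

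**Figure D2:**
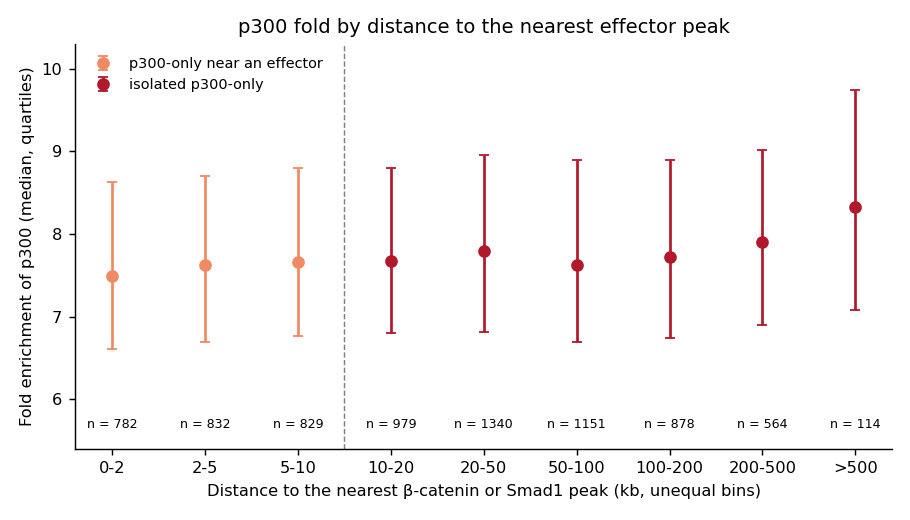
Fold enrichment of p300 (y axis, points are medians and bars reach the quartiles) for p300-only peaks by distance to the nearest β-catenin or Smad1 peak (x axis, kb, unequal bins; the dashed line is the 10 kb limit). Medians stay between 7.50 and 7.90 up to 500 kb and reach 8.32 in the last bin of 114 peaks.

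Isolation was isolation from the deposited effector lists alone. The numbers in the peak names run in genome order in each list. They are read here as the caller's own numbering, which no source used here states. On that reading, the difference between the numbers of successive deposited peaks counts the calls between them that are outside the list. The β-catenin numbers run to 195449, and the 16303 deposited peaks are 8.34% of that number. For 4918 isolated peaks with a deposited β-catenin peak on either side, a median of 27 unlisted β-catenin calls (quartiles 17 and 42) lay between those flanking peaks, over a median interval of 351.3 kb. Of the 4918, 1 (0.0203%, interval 0.000515 to 0.113) had none. This peak lay on chromosome 1S from 140149708 to 140150012 (8.19-fold), between β-catenin peaks 99.5 kb apart. Near p300-only peaks also rarely had none, at 6 of 2424 (0.248%), over a median interval of 63.7 kb. For Smad1, 73 of 4821 isolated peaks (1.51%, interval 1.19 to 1.90) had no unlisted call between the flanking peaks, and the median number was 7. The Smad1 count for near peaks was 120 of 2386 (5.03%), over a median of 315.8 kb against 858.9 kb for isolated peaks. Having none was thus rare in both classes, whose intervals differ in length. The share over all explant p300 peaks was not counted for either effector. These counts can therefore not be called particular to isolated peaks. No isolated peak of the 4814 that could be read for both effectors had none for both. The positions of the unlisted calls are unknown, and whether any of them lay on an isolated peak was not tested.

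Unlisted β-catenin calls were sparser around isolated peaks than around near p300-only peaks, with medians of 77.9 and 149.2 per Mb of the flanking interval. For effector-free peaks that overlapped whole-embryo p300 the median was 98.6 per Mb. The rule places isolated peaks in longer intervals, so this is a description. No value over the whole list or genome is given for β-catenin, so these medians compare classes only. They do not show that isolated peaks lie in sequence poor in calls. The β-catenin numbers run to 195449 and the explant p300 numbers to 96602, and the named chromosomes span 2505 Mb. Unlisted p300 calls were also sparser around isolated peaks than around other explant p300 peaks, again without a value for the genome. Between the deposited explant p300 peaks on either side of an isolated peak there was a median of 11 unlisted p300 calls over 282.4 kb, or 36.0 per Mb, against 68.1 per Mb for near peaks and 47.5 per Mb over the whole explant p300 list.

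Isolated peaks were spread thinly over most of the genome. On the 18 named chromosomes, taken to the last peak of any list, 89.2% of the 2505 Mb lay over 10 kb from an effector peak. This part held 5178 of the 14221 explant p300 peaks, or 2.32 per Mb, against 33.4 per Mb within 10 kb of an effector. Of those 5178 peaks, 4795 were isolated p300-only peaks (92.6%) and the other 383 overlapped whole-embryo p300. The isolated peaks thus had a density of 2.15 per Mb outside the 10 kb zones, and near p300-only peaks one of 8.64 per Mb inside them.

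Most isolated peaks had no effector-free p300 peak close by, as was true of the list as a whole. Another explant p300 peak that overlapped no effector was within 10 kb for 1185 of them (23.0%, interval 21.8 to 24.2), whereas 26.3% of the whole list had one. Among near p300-only peaks the share was 36.8%, so that isolated peaks were 13.8 points lower (interval 11.5 to 16.0). This difference is not independent of the rule, which places near peaks inside the 10 kb zones and isolated peaks outside them. Near peaks had 8.64 per Mb inside the zones, and isolated peaks 2.15 per Mb outside. Against the 24.8% of effector-overlapping peaks, isolated peaks were 1.78 points lower (interval 0.238 to 3.31). Where an isolated peak had such a neighbour, the nearest was another isolated peak in 1001 of the 1185 cases (84.5%). Isolated peaks were 5154 of the 8259 peaks that overlapped no effector. The rule itself raises the 84.5%, since a peak that close to a member tends to lie far from effectors too. A further 1494 isolated peaks (29.0%, interval 27.8 to 30.2) were over 100 kb from any other explant p300 peak or the only one on their sequence, where the whole list gives 17.6%. The rule adds to this share, since it leaves no effector-overlapping p300 peak close to a member. Isolated peaks with an effector-free neighbour had a median fold of 7.74, and those without had one of 7.72.

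Deposited whole-embryo p300 peaks were rarely close to isolated peaks. Their list is short, with 4555 peaks from 1 ChIP library, a median width of 118 bp and a lowest −log10 p of 4.63. The explant p300 list has 15146 peaks, a median width of 411 bp and a lowest −log10 p of 23.1. Whether the rarity comes from the list or from the sites was not tested. A whole-embryo p300 peak lay within 10 kb, without overlap, of 225 isolated peaks (4.37%, interval 3.82 to 4.96) and within 1 kb of 32. Over all explant p300 peaks without such an overlap the share was 15.5%, and among near p300-only peaks it was 29.8%. That gap is not independent of the rule, which also removes p300 peaks near whole-embryo peaks that coincide with an effector. With only the 1958 whole-embryo p300 peaks that overlap no effector, a setting chosen after seeing the data, 6.75% of near peaks (interval 5.79 to 7.82) and 4.37% of isolated peaks had one, where the whole list gives 5.07%. The difference was then 2.39 points (interval 1.29 to 3.58) in place of 25.4. The isolated peak closest to a whole-embryo peak, 9 bp away, lay on chromosome 6S from 82927347 to 82927601 (8.43-fold), a site picked out after its value was seen.

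**Figure D3:**
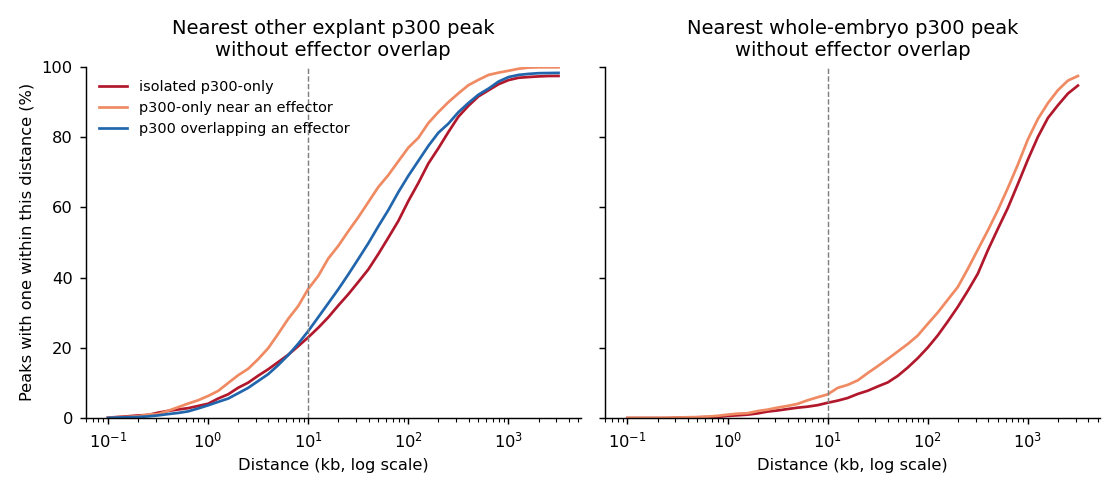
Share of peaks (y axis, percent) that have a neighbour within a given distance (x axis, kb, log scale; the dashed line marks 10 kb), for other explant p300 peaks and for whole-embryo p300 peaks, in both cases those without effector overlap. At 10 kb the lines for isolated p300-only peaks stand at 23.0% and 4.37%, and those for near p300-only peaks at 36.8% and 6.75%.

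Most isolated peaks were not part of a group of isolated peaks. When isolated peaks within 10 kb of each other were joined, 4129 stayed single and 1025 fell into 470 runs of at least 2. Of these runs 402 held 2 peaks and 56 held 3, and the longest held 8. Runs were not counted for other classes or the whole list, so these counts cannot be called particular to isolated peaks. The longest run spanned 22808 bp on chromosome 9_10L from 40614301 to 40637108. Its 8 peaks, in order, had folds of 7.46, 5.96, 8.35, 9.71, 6.38, 6.66, 9.09 and 6.25. Most were thus below the median fold of the list, and no single peak stood out. The nearest Smad1 peak was 10.483 kb from the last peak of the run, close to the limit of the rule, and the nearest β-catenin peak was 61.96 kb away. If the peak numbers are the caller's own, 4 further p300 calls inside the run are outside the list.

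The next run held 5 peaks over 9597 bp on chromosome 1L from 152232052 to 152241648. Its folds were 8.92, 5.86, 7.47, 8.06 and 8.45, with the nearest effector, β-catenin, 39.7 kb away. Of the 10 runs of 4 peaks, the one with the highest summed score lay on chromosome 2S from 29188904 to 29196108, with folds of 6.57, 7.86, 10.5 and 9.71. Its last 3 peaks were packed within 2 kb of each other, and both effectors lay about equally far, at 17.9 and 18.0 kb. Peaks of one run share their surroundings and are not independent sites.

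**Figure D4:**
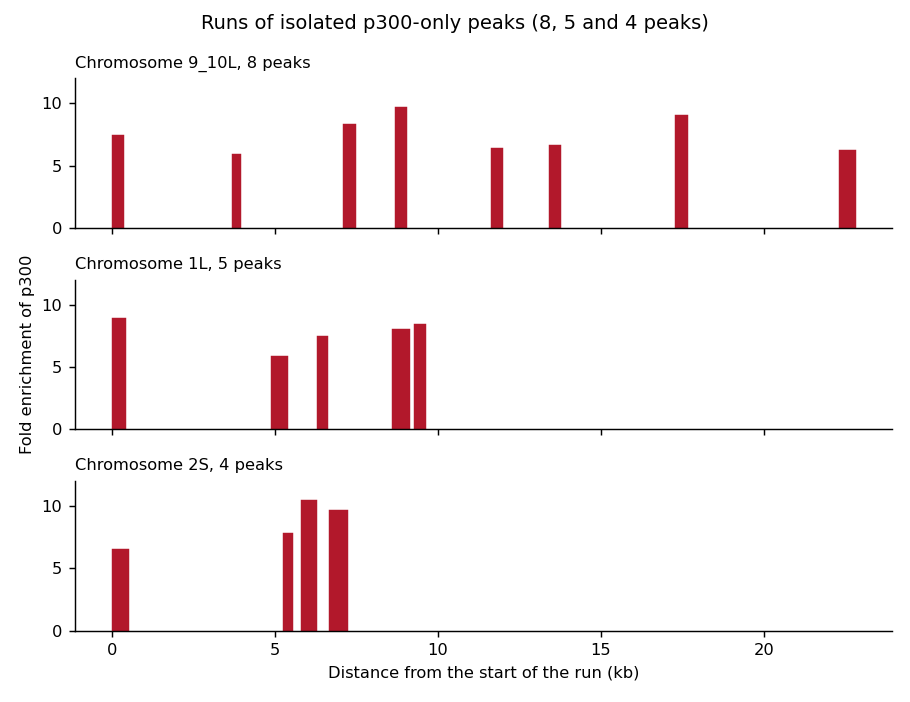
Fold enrichment of p300 (y axis) for each isolated p300-only peak of the runs of 8 and 5 peaks and of the highest-scoring run of 4, drawn at its width along the distance from the start of the run (x axis, kb). The run on chromosome 9_10L holds 8 peaks over 22.8 kb with folds of 5.96 to 9.71, and the runs on 1L and 2S hold 5 and 4 peaks.

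The genome of Xenopus laevis is tetraploid by hybridisation, so that each chromosome has a long (L) and a short (S) homeologue. Of the 4795 isolated peaks on named chromosomes, 2801 were on L (58.4%, interval 57.0 to 59.8), where the whole explant list gives 60.3%. The share was 62.6% for near p300-only peaks, so that isolated peaks were 4.15 points lower (interval 1.74 to 6.55), and 60.9% for effector-overlapping peaks, with isolated peaks 2.53 points lower (interval 0.698 to 4.36). The L chromosomes hold 54.6% of the span. Isolated peaks numbered 2.05 per Mb on L and 1.75 per Mb on S, a ratio of 1.17, and this ratio was 1.39 for near p300-only peaks and 1.30 for effector-overlapping peaks. This order depends on the sequence counted, as the next values show.

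Effector zones also covered more of L, at 11.8% of its span against 9.60% of S. Counted only over the sequence outside those zones, isolated peaks had 2.32 per Mb on L and 1.94 per Mb on S, a ratio of 1.20. Near p300-only peaks, counted over the zones alone, had 9.07 per Mb on L, with a ratio of L to S of 1.13, so that the order of the 2 ratios turned. Outside the zones, isolated peaks were denser on L in 9 of 9 pairs, with ratios from 1.02 in pair 8 to 1.42 in pair 4. In pairs 5, 8 and 9_10 the ratio was below 1.07, and in pairs 3 and 4 it was above 1.41. Over the whole span isolated peaks were denser on L in 8 of 9 pairs, and their ratio in pair 8 was 0.982. Near p300-only peaks were denser on L in 9 of 9 pairs over that span. The ratio of L to S over the whole explant p300 list was 1.27. A higher density on L is therefore not particular to isolated peaks. Chromosomes were taken to end at their last peak, so the direction is uncertain where a ratio is close to 1.

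Among single chromosomes, 8S had the highest share of p300 peaks that were isolated, at 239 of 600 (39.8%, interval 35.9 to 43.9), and its partner 8L had 31.4% (interval 28.3 to 34.5). The lowest share was on 7S, at 152 of 504 (30.2%, interval 26.2 to 34.4). By density over the whole span, chromosomes 9_10L, 9_10S, 8S and 8L led, with 2.50, 2.43, 2.42 and 2.37 isolated peaks per Mb, and 6S was lowest with 1.52. All explant p300 peaks numbered 7.51, 6.40, 6.06 and 7.57 per Mb on those leading chromosomes. The value was 4.50 on 6S and 5.68 over the named chromosomes. The high densities are therefore not particular to isolated peaks. The number of peaks on each chromosome limits these shares, whose intervals mostly overlap.

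**Figure D5:**
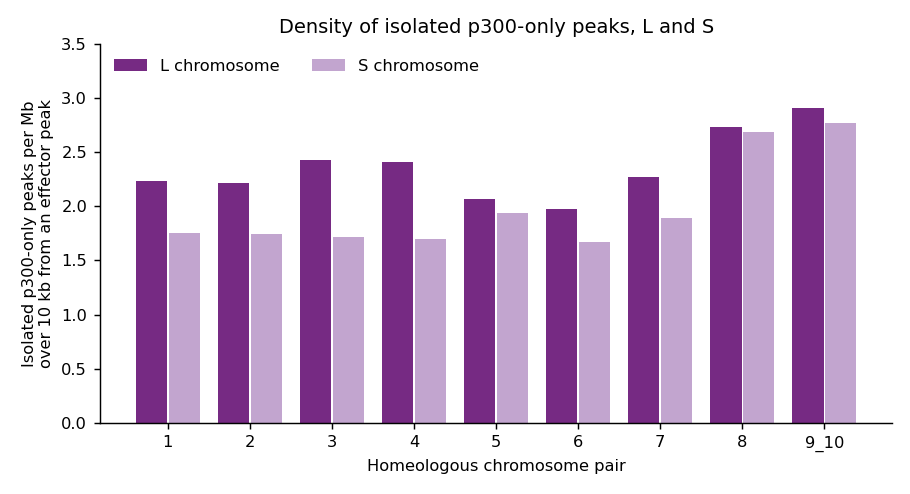
Density of isolated p300-only peaks (y axis, peaks per Mb of sequence over 10 kb from an effector peak) on the L and S member of each chromosome pair (x axis). The L bar is the taller in 9 of 9 pairs, by ratios of 1.02 to 1.42. All explant p300 peaks together were also denser on L, with a ratio of 1.27 over the whole span.

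The other 359 isolated peaks (6.97%, interval 6.29 to 7.69) were on 181 unplaced scaffolds, and unplaced scaffolds in all carried 6.11% of the whole list. Their share was 4.42% for near p300-only peaks, 5.72% for effector-overlapping peaks and 9.67% for effector-free peaks that overlapped whole-embryo p300. For 128 of the 359 isolated peaks, on 126 scaffolds, no effector peak existed on the same sequence, so that the distance rule could not act. Of these scaffolds 125 held a single explant p300 peak. In all, 63 isolated peaks began within 100 bp of the start of a scaffold. This was not counted for the other explant p300 peaks, so it cannot be called particular to isolated ones. The median fold of the 128 peaks was 8.24, above the 8.04 of the whole list and the 7.72 of isolated peaks on named chromosomes. Scaffold21, with 21 isolated peaks, and Scaffold20, with 18, held the most.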

How the data were processed

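The 4 peak lists were used as deposited. The submitters' processing notes name FastQC, Trimmomatic, Bowtie2, Picard, SAMtools and MACS2, with neither versions nor roles. The genome build is not stated. Without a header, the files follow the 10-column narrow-peak layout. For each peak the authors deposited a score, a fold enrichment (ratio), −log10 values of the p-value and the q-value, and a summit. The titles of the lists other than whole-embryo p300 name IDR, a filter on reproducibility. What it compared is not stated. The series holds 1 Smad1 ChIP library, and the 4 explant libraries of each factor come from different tissue and treatment groups. A filter between biological replicates is therefore not shown. The lowest −log10 p is 23.1 for explant p300, 78.6 for β-catenin and 14.4 for Smad1, and these limits decide which p300 peaks count as effector-free. For whole-embryo p300, whose list the rule also used, it is 4.63.

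Repeated intervals were reduced to 1. Gaps were measured edge to edge, and overlap meant at least 1 bp. Python 3.11.15, pandas 2.3.3 and scipy 1.17.1 were used, and bedtools 2.31.1 found the same 5154 peaks. The classification was tested on simulated lists. A chromosome was taken to end at its last peak. The RefSeq gene table at hand reached beyond the last peak on each of the 18 chromosomes. On 8S it reached 104.0 Mb against 99.0 Mb, and on 7S 113.0 Mb against 89.6 Mb. It could not be matched to the coordinates and was not used. Spans and densities may thus be off by unequal amounts on different chromosomes.

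Most regions named in the text follow a rule: the 5 highest scores, the 3 largest effector distances, the 3 longest runs (ties by summed score), the peaks on either side of the limit, and the chromosomes with the highest and lowest share. Others were picked by their values outside this rule. They include the lowest fold, the peak closest to whole-embryo p300, the peak without an unlisted β-catenin call and the scaffolds with the most isolated peaks. Members, comparisons and alternatives were chosen with earlier results of these data known. Alternatives changed the window, the distance, the whole-embryo condition, the lists' score limits and the sequences.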

Additional observations from a re-analysis of the deposited data

How the results depend on the processing

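No paired analysis was possible because each list is a single call set without replicate lists. Of 115 recomputed values, 95 stayed within the interval of the main value, or for the number of peaks within 1.5 times, and no difference between isolated and near p300-only peaks changed sign. Some of the 95 could not move. Named chromosomes alone cannot change the shares on L, and dropping the whole-embryo condition cannot change the whole-embryo shares, which leave out overlaps. With 50% overlap the isolated peaks were the same 5154. The 50% of explant p300 peaks with the highest scores held 1855 isolated peaks, with 43.6% above the median fold of that part (6.41 points over near peaks), 34.8% above its median width, 13.2% with an effector-free explant p300 neighbour (−8.65 points) and 5.39% with whole-embryo p300 within 10 kb. With the 50% highest-scoring effector peaks the number was 7453 and these shares were 44.2%, 38.6%, 29.8% and 6.45% (−31.7 points for the last). A window of 5 kb gave 5983 peaks, 24.5% with an explant neighbour and 6.74% with a whole-embryo neighbour, and one of 20 kb gave 4175 peaks, 20.7% with an explant neighbour, 7.71% on scaffolds and a whole-embryo difference of −18.2 points. Without isolated and near peaks that had whole-embryo p300 within 10 kb, 21.1% of isolated peaks had an explant neighbour (−10.02 points). In the same setting the share above the median fold was 1.94 points over near peaks, with an interval that held 0, as in no other of the 9 alternatives. With effector-free whole-embryo peaks alone the whole-embryo difference was −2.39 points. With the highest-scoring p300 peaks, neighbours were sought among those peaks alone. With the highest-scoring effector peaks, effector-free meant free of those effector peaks alone. These 2 settings thus changed the trait as well as the peaks. The cause of the shifts was not tested. Summit distances, 50% overlap, no whole-embryo condition and named chromosomes alone moved no value beyond these limits, including the values that they could not change.

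Values rest on call sets of unknown depth. An isolated peak lacks a deposited effector peak, which does not show that the effector is absent.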
